A study of Homo sapiens with 8 samples.

Results

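The ZIC transcription factors examined here were *ZIC1* and *ZIC4*, which lie head to head on chromosome 3, and *ZIC2* and *ZIC5*, which lie head to head on chromosome 13. An enhancer was assigned to a member when it overlapped the gene body or lay within 50 kb of the start site in GRCh38, and each pair of genes was treated as 1 locus. This rule found 10 of the 88550 enhancers of the 4 medulloblastoma (MB) lines, of which 8 belonged to *ZIC1*-*ZIC4* and 2 to *ZIC2*-*ZIC5*. All enhancers of a locus were assigned to both of its members, so the pair cannot be separated by these values. In RefSeq, *ZIC1* spans chr3:147409365-147416719 on the plus strand and *ZIC4* chr3:147386046-147406543 on the minus strand. *ZIC2* spans chr13:99981784-99986765 on the plus strand and *ZIC5* chr13:99962964-99971909 on the minus strand, and the start sites lie 2822 bp apart on chromosome 3 and 9875 bp apart on chromosome 13.

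The enhancers came from ChIP-seq of H3K27Ac, a histone mark of active enhancers and promoters, in which 1 H3K27Ac library was set against 1 input library per line. ROSE, a program that joins neighbouring peaks into enhancers and ranks them by signal, called those above a cutoff as super-enhancers (SEs) and the rest as typical enhancers (TEs). MB002, D425 and HD-MB03 are group 3 MB (G3-MB) lines, and UW228 is labelled as SHH subtype and served as the non-G3 line. MB002 and HD-MB03 were grown in Tumor Stem Media, a serum-free medium with growth factors, whereas D425 and UW228 were grown in DMEM with fetal bovine serum, and the labels name no treatment. No replicate libraries were analysed, and each value describes a single library of a single line. The values of UW228 came from a later ROSE run than those of the G3-MB lines, and this run cannot be told apart from the subtype.

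ZIC proteins are C2H2 zinc finger transcription factors related to the GLI factors of Hedgehog signalling. They act in the patterning of the dorsal neural tube and are known from the cerebellum, where *ZIC1*, *ZIC2* and *ZIC4* are active in the granule cell lineage and losses of *ZIC1* and *ZIC4* have been tied to cerebellar malformation. *ZIC2* is known for its role in forebrain formation and *ZIC5* for its role in neural crest development. The genes lie in bidirectional pairs, so a pair may share regulatory elements.

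The promoters of 3 members are shown to place the start sites relative to the enhancers. Each run is the 250 bases before the RefSeq start site in GRCh38, written on the strand of the gene and credited to RefSeq. Capitals mark a match to 1 of 7 searched motifs on either strand, namely TAATCC of OTX2 and CRX, the MYC E-box CACGTG, the bHLH E-boxes CAGCTG and CAGATG, the ZIC motif CCTGCTG, the GLI core TGGGTGG and the AP-1 motif TGACTCA. None of these motifs lies within another.
*ZIC1*, chr3:147409115-147409364, plus strand: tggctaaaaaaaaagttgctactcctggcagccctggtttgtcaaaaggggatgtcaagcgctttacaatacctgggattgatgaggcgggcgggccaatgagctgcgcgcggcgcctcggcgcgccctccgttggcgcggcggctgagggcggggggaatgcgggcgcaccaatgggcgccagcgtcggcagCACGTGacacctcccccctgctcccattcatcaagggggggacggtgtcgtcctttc
*ZIC2*, chr13:99981534-99981783, plus strand: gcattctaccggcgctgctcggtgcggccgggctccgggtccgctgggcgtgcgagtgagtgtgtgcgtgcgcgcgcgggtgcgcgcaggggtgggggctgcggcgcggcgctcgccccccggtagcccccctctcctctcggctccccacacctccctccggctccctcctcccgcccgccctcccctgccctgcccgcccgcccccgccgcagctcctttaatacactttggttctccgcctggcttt
*ZIC5*, chr13:99971910-99972159, minus strand: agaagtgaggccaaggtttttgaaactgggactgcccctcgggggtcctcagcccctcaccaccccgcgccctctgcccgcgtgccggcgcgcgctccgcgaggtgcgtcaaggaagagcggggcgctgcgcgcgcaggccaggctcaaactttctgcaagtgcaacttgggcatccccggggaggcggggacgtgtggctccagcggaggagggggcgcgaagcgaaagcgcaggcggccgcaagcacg
The *ZIC1* run lay inside an enhancer of MB002 and of D425, and only its last 24 bases lay inside the enhancer of HD-MB03. The *ZIC2* and *ZIC5* runs lay in no enhancer of the 4 lines. The *ZIC1* run held the single match of the 3, a CACGTG at base 194, a motif found in 6.34% of 35116 RefSeq promoters of this length. The promoter of *ZIC4* held none and is not shown. All 3 runs were rich in G and C, with 64.4% in *ZIC1*, 75.6% in *ZIC2* and 70.4% in *ZIC5* against 42.8% in *ZIC4* and a median of 58.0% over all promoters.

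The labels were checked against marker genes. Of 8 G3-MB markers, 7 had an enhancer in MB002 and 6 each in D425 and HD-MB03, with a SE at 4, 3 and 3 of them. UW228 had an enhancer at 3 of them and a SE at none, and *OTX2*, *CRX*, *NRL*, *NEUROD1* and *GABRA5* had no enhancer there. In summed signal, 5 of the 8 were higher in all 3 G3-MB lines than in UW228. *GABRA5* had no enhancer in D425 and HD-MB03 either. *NPR3* had none in the G3-MB lines and a sum of 25870 in UW228. *MYC* had 24370 in UW228, above 3638 in HD-MB03 and below 340819 in MB002 and 211226 in D425. Of 8 SHH-MB markers, 7 had an enhancer in UW228 and none a SE, against 6 with an enhancer for MB002, 4 for D425 and 5 for HD-MB03. Over all genes the share with an enhancer was 67.4% for MB002, 69.0% for D425, 54.2% for HD-MB03 and 59.0% for UW228, and the share with a SE ran from 3.03% for HD-MB03 to 5.24% for UW228. Among the markers, *ATOH1*, the granule precursor factor, had no enhancer in any line. HD-MB03 had a SE at 3 SHH-MB markers, *GLI1*, *PTCH1* and *PDLIM3*. Of 7 mesenchymal markers, 7 had an enhancer in both UW228 and MB002, 5 in HD-MB03 and 4 in D425. A SE was called at 3 of them in UW228 (*COL1A2*, *VIM* and *CD44*) and at none in the G3-MB lines. Of 7 granule lineage markers, MB002 had an enhancer at 4, D425 and UW228 at 3 and HD-MB03 at 5. The part of these differences in the ZIC values was not tested. The deposited values do not give the depth of the libraries, and the number of enhancers ran from 15286 in HD-MB03 to 26317 in D425.

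At the *ZIC1*-*ZIC4* locus all 4 lines had at least 1 enhancer, and the summed signal of the listed enhancers was higher in each G3-MB line than in UW228. MB002 and D425 each had 3 enhancers there, and HD-MB03 and UW228 each had 1. The summed signal, which is H3K27Ac minus input in normalized reads per base pair multiplied by length, was 12690 for MB002, 12403 for D425, 6270 for HD-MB03 and 1490 for UW228. *ZIC1* and *ZIC4* thus had an enhancer in every line, as 37.8% of the 23632 genes with an enhancer in at least 1 line did.

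**Figure D1:**
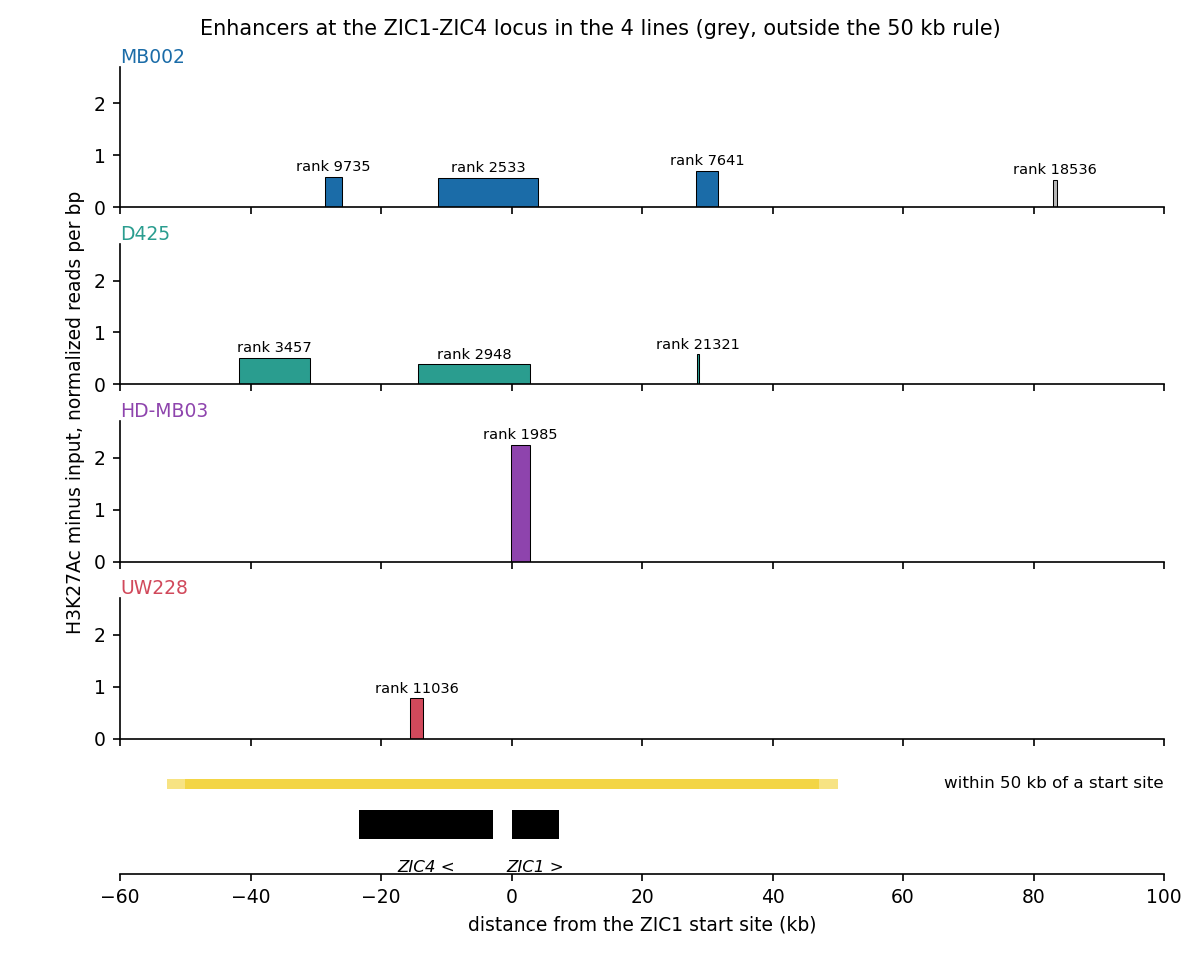
Enhancers around *ZIC1* and *ZIC4* in each line, with the distance from the *ZIC1* start site in kb on the horizontal axis and H3K27Ac minus input in normalized reads per base pair on the vertical axis, where each box is 1 stitched enhancer drawn to scale with its rank, grey boxes lie outside the 50 kb rule and black bars are the RefSeq genes. MB002 and D425 have broad low boxes of 0.573 and 0.388 over both genes, HD-MB03 has a narrow box of 2.25 at the *ZIC1* start, and the box of UW228 lies inside *ZIC4*.

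In MB002 the main enhancer, chr3:147398096-147413406, was 15310 bp long, as end minus start, and ran from within *ZIC4* across both start sites into *ZIC1*. It was stitched from 3 peaks that covered 28.2% of its length, and its signal of 8776 was 69.2% of the sum of the locus. It covered 9155 bp of intron, 1518 bp of coding sequence and 2064 bp of UTR of the pair. The other enhancers of MB002 lay outside both RefSeq genes, 1 of them 23079 bp from the *ZIC4* start with a signal of 1585 and the other 28290 bp from the *ZIC1* start with 2329. The latter lies inside the longer *ZIC1* gene of GENCODE, which reaches to 147510293. MB002 therefore had H3K27Ac on both flanks of the RefSeq pair in addition to the genes themselves.

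D425 also had H3K27Ac over the pair and on both flanks. Its enhancer over the pair, chr3:147395104-147412151, was 17047 bp long, held 4 peaks over 28.6% of its length and had a signal of 6619. A further enhancer, chr3:147367612-147378545, lay 27998 bp from the *ZIC4* start, held 6 peaks and had a signal of 5638. That flanking enhancer had no overlap with the MB002 enhancer on the same side. The third enhancer of D425 was 251 bp long and had a signal of 146.

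In HD-MB03 the whole signal of the locus came from 1 peak at the start of *ZIC1*. This enhancer, chr3:147409341-147412130, began 24 bp before the start site and was 2789 bp long, and 982 bp of it were coding sequence of *ZIC1*. Its signal of 6270 amounted to 2.25 per bp, against 0.573 in the MB002 enhancer and 0.388 in the D425 enhancer that contain it. None of the 15 annotated *ZIC4* transcript starts lay inside it, whereas 8 lay inside the main enhancer of MB002 and 9 inside that of D425.

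The enhancer of UW228, chr3:147393861-147395775, lay inside *ZIC4* and was 1914 bp long, with 1867 bp in introns and a signal of 1490. Its nearer end lay 10768 bp from the RefSeq *ZIC4* start and 13590 bp from that of *ZIC1*. GENCODE places a start of a longer *ZIC1* transcript at 147393895 and of a *ZIC4* transcript without a defined coding sequence at 147393887, and both lie in this enhancer. Neither lies in an enhancer of the G3-MB lines.

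Between lines, the overlap was greatest among the G3-MB lines. MB002 and D425 shared 14306 bp, which was 67.1% of the enhancer length of the locus in MB002 and 50.7% in D425. The HD-MB03 enhancer lay wholly inside both, where it made up 13.1% of the length in MB002 and 9.88% in D425. UW228 shared no base with MB002 or HD-MB03 and 671 bp with D425, 35.1% of its own enhancer and 2.38% of the D425 length. This D425 and UW228 overlap covered less than 50% of the shorter enhancer and would not count as shared under that rule.

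The middle 300 bases of the stretch that D425 and UW228 shared, in an intron of *ZIC4*, are shown because this is the one place where UW228 met a G3-MB line. They are GRCh38, plus strand, and capitals mark motif matches as above.
D425 and UW228, chr3:147395289-147395588: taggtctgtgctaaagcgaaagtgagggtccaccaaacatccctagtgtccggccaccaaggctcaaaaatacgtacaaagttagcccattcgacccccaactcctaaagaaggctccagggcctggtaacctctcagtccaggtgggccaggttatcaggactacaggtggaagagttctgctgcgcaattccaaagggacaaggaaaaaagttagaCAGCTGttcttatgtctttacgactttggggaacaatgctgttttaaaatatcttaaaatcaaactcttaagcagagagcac
This run held a CAGCTG at base 219 and no TAATCC.

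For the question whether the locus differs between G3-MB and UW228, the summed signal was 10454 ± 3626 (SD, n = 3 lines) in the G3-MB lines and 1490 in UW228, a difference of 8965. An exact permutation test over the 4 lines, two-sided, gave p = 0.25, which is the smallest p that 4 splits allow, so this design cannot reach 0.05. *ZIC1* and *ZIC4* were higher in 3 of 3 G3-MB lines, and 23.4% of genes with an enhancer in at least 1 line had this order. By line the sum was 8.52-fold that of UW228 in MB002, 8.33-fold in D425 and 4.21-fold in HD-MB03, over enhancers called separately in each line with lengths of 21321, 28231 and 2789 bp against 1914 bp. Per bp of these lengths the ratio to UW228 was 0.765 for MB002, 0.564 for D425 and 2.89 for HD-MB03. MB002 and D425 differed 1.02-fold in sum, and without replicates no order between these lines can be set. With a window of 25 kb both flanking enhancers of D425 and 1 of MB002 dropped out, and the sum of D425 was 6619, against 10361 for MB002 and 6270 for HD-MB03, so that MB002 was 1.57-fold above D425. Of the lines grown with serum, D425 had 12403 and UW228 had 1490, while Tumor Stem Media was used for G3-MB lines alone.

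The order changed when the signal was taken per base pair of the stitched enhancers, gaps between peaks included. The mean signal per bp was 0.595 for MB002, 0.439 for D425, 2.25 for HD-MB03 and 0.778 for UW228. UW228 was thus above MB002 and D425 on this scale, and only HD-MB03 was above UW228 (p = 1 for the difference in means, exact permutation test, two-sided). The listed peaks made up 8687 of 21321 bp for MB002 and 11299 of 28231 bp for D425, and the whole enhancer for HD-MB03 and UW228. Divided by the bp of the peaks alone, a measure added after seeing the data, the signal was 1.46 for MB002, 1.10 for D425, 2.25 for HD-MB03 and 0.778 for UW228, so all 3 G3-MB lines were then above UW228 (p = 0.5, exact permutation test, two-sided). That measure credits the signal of the gaps to the peaks, and the order against UW228 thus depended on the length used. Relative to the median enhancer of its line, the sum was 14.3 for MB002, 17.3 for D425, 7.42 for HD-MB03 and 0.881 for UW228, so the 3 G3-MB lines stayed above UW228 on that scale.

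**Figure D2:**
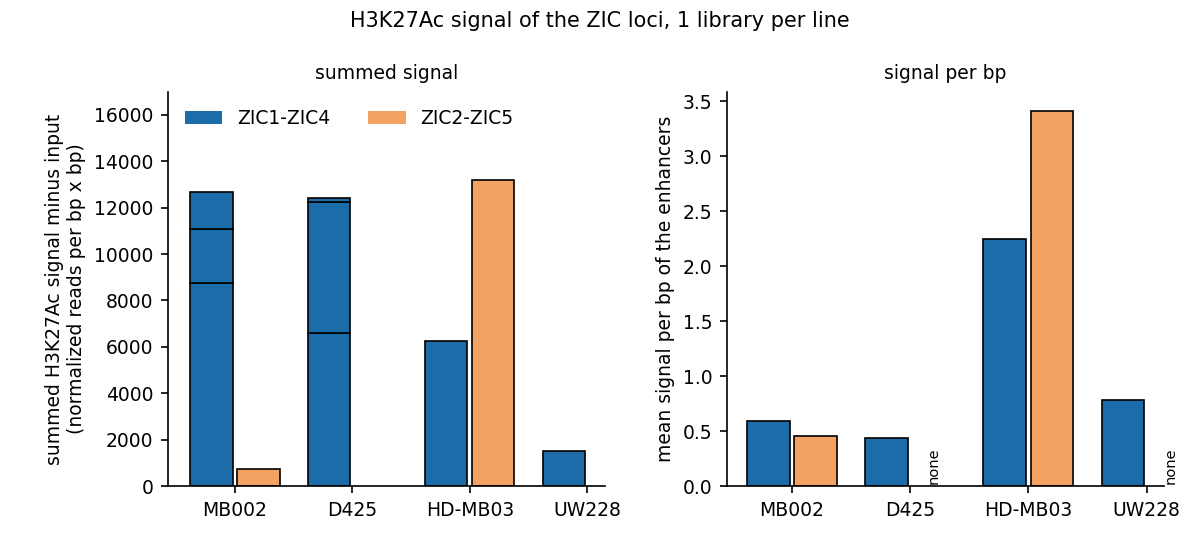
Summed H3K27Ac signal minus input (left) and mean signal per base pair (right) of both ZIC loci, 1 library per line, where lines inside the bars separate enhancers and "none" marks a locus without an enhancer. The left bars of *ZIC1*-*ZIC4* fall from 12690 in MB002 to 1490 in UW228, while on the right HD-MB03 stands above the others with 2.25 and, for *ZIC2*-*ZIC5*, 3.42.

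No member had a SE in any line by the calls of the authors, but *ZIC2* and *ZIC5* in HD-MB03 passed when the signal was divided by either measure of input density or ranked per bp. With the median input density within 500 kb, their enhancer moved only from rank 855 to 755, while the SEs of the line rose from 302 to 1048. The share of the 27449 genes with a SE was 3.18% for MB002, 4.18% for D425, 3.03% for HD-MB03 and 5.24% for UW228, so 0 of 4 members is near these low shares. None of the 10 enhancers was called as SE, and the share of all enhancers that were was 1.39% for MB002, 1.64% for D425, 1.98% for HD-MB03 and 3.61% for UW228. The best rank of *ZIC1*-*ZIC4*, where 1 is the highest signal, was 2533 for MB002, 2948 for D425, 1985 for HD-MB03 and 11036 for UW228. These ranks lay at 9.72%, 11.2%, 13% and 52.9% of the enhancers of the line. The summed signal of *ZIC1* and *ZIC4* exceeded that of 77.0% of the genes with an enhancer in each of MB002 and D425, of 63.8% in HD-MB03 and of 28.5% in UW228. As a share of the lowest SE signal, the best enhancer reached 27.1% for MB002, 25.2% for D425, 27.2% for HD-MB03 and 6.09% for UW228.

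**Figure D3:**
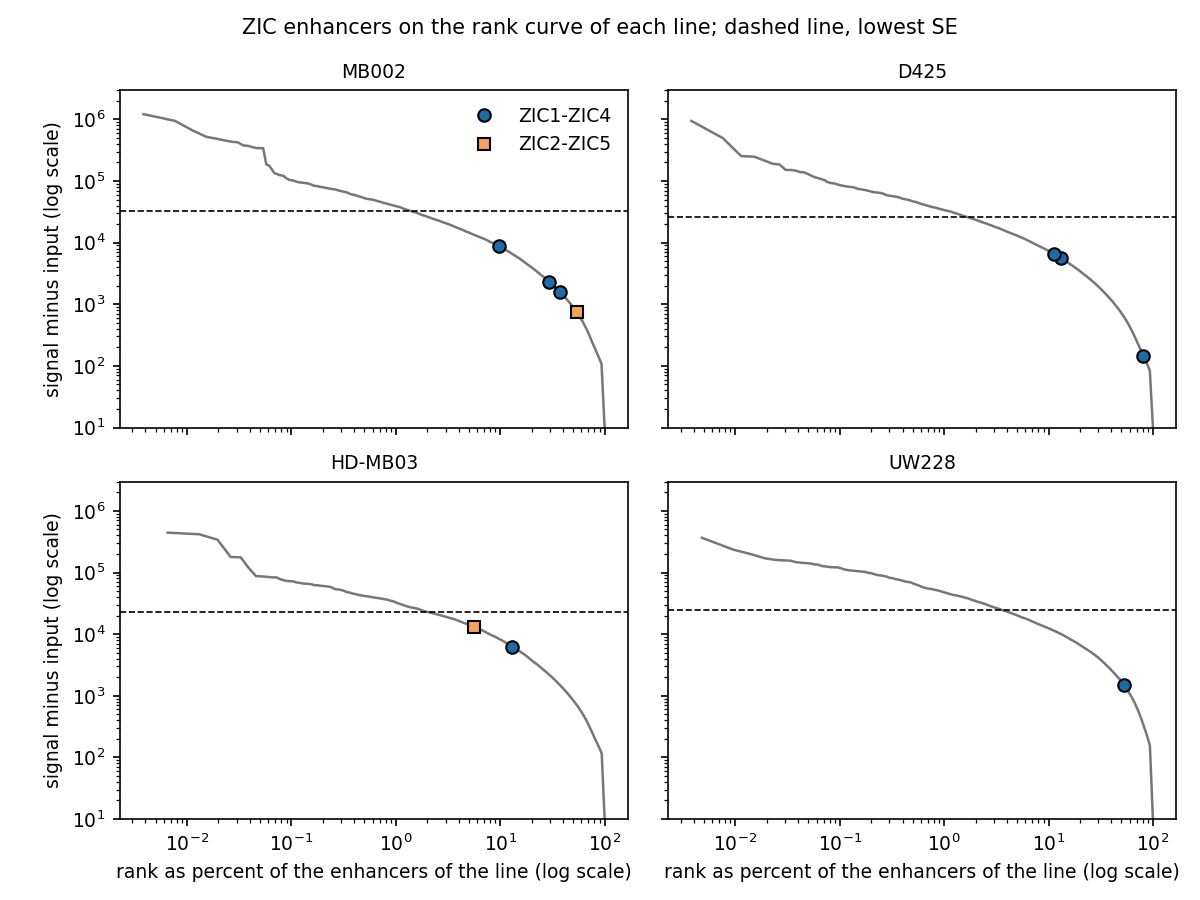
Signal minus input against rank as a percent of the enhancers of the line, both on log scales, with the ZIC enhancers as points and the lowest SE as a dashed line. Every point lies below the dashed line, the nearest being *ZIC2*-*ZIC5* in HD-MB03 at 57.3% of it, and the fall of each curve at its right end is enhancers whose signal is near 0.

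Within 1 Mb on either side, *ZIC1* and *ZIC4* held the strongest enhancer of their neighbourhood in the G3-MB lines. The locus made up 54.6% of the summed signal of 18 enhancers in MB002, 67.0% of 14 in D425 and 61.6% of 6 in HD-MB03. In UW228 it made up 3.74% of 17 enhancers, and 6 enhancers outside the locus ranked above it. The highest of those, rank 3182, was closest to *PLSCR1*, a phospholipid scramblase gene.

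At the *ZIC2*-*ZIC5* locus only MB002 and HD-MB03 had an enhancer, and the signal of HD-MB03 was the highest. The summed signal was 744 in MB002 and 13190 in HD-MB03, and D425 and UW228 are listed with no enhancer. All 4 members therefore had an enhancer in MB002 and HD-MB03, where 67.4% and 54.2% of all genes did, and 2 members in D425 and UW228, where 69.0% and 59.0% did. Of the 23632 genes with an enhancer in at least 1 line, 2.01% had one in MB002 and HD-MB03 and none in D425 and UW228, and 15.6% were highest in HD-MB03. MB002 and HD-MB03 are the lines grown in Tumor Stem Media, and the medium cannot be told apart from the lines.

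**Figure D4:**
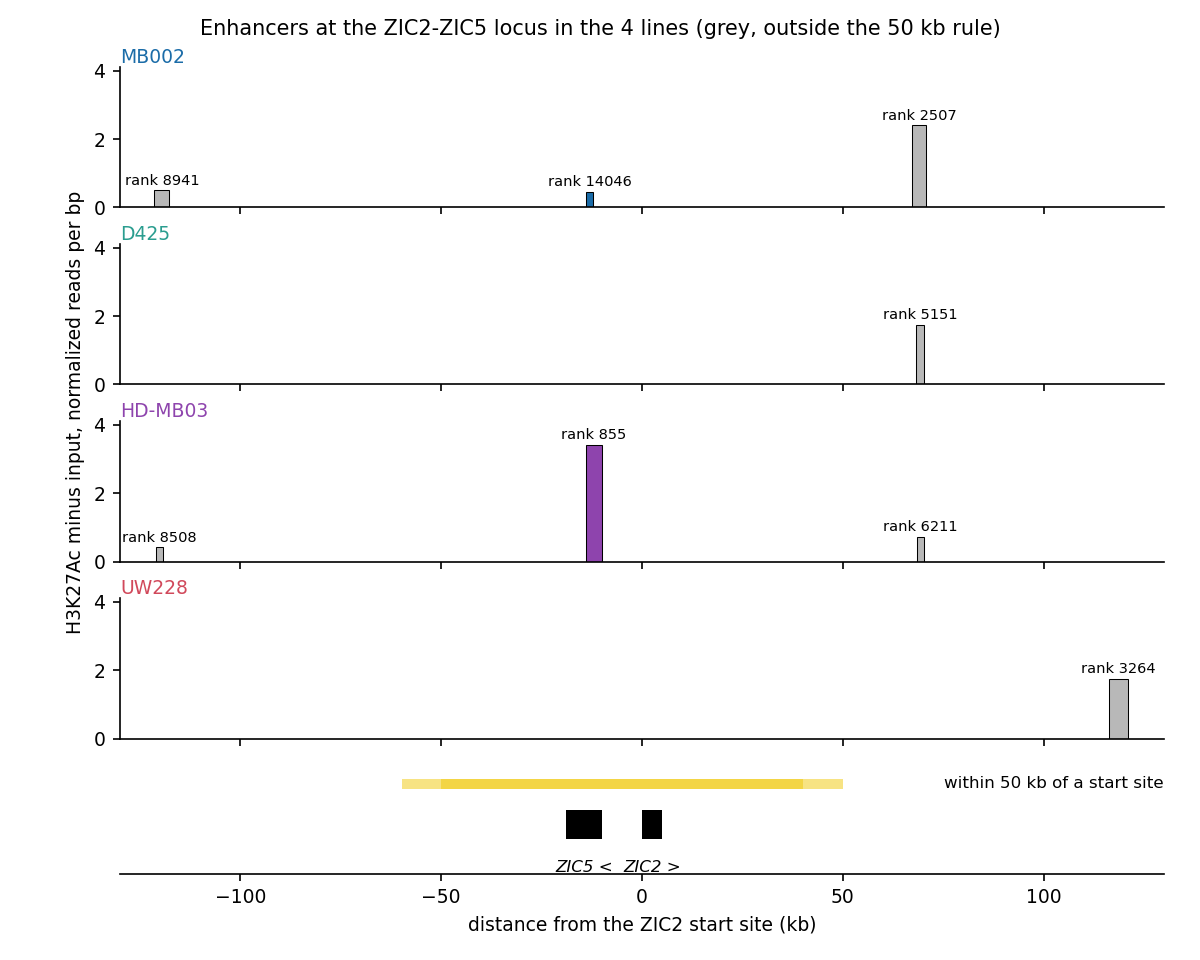
Enhancers around *ZIC2* and *ZIC5* in each line, with the distance from the *ZIC2* start site in kb on the horizontal axis and H3K27Ac minus input in normalized reads per base pair on the vertical axis, where coloured boxes meet the 50 kb rule and grey boxes do not. HD-MB03 has a box of 3.42 in *ZIC5*, MB002 one of 0.458 at the same place, and grey boxes of rank 2507, 5151 and 6211 stand to the right of *ZIC2* in the G3-MB lines.

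Both enhancers lay in *ZIC5* and neither touched *ZIC2*. The HD-MB03 enhancer, chr13:99967865-99971725, was a single peak of 3860 bp that stopped 184 bp short of the RefSeq *ZIC5* start and 10059 bp from the *ZIC2* start. With both end bases counted, it covered 2262 bp of intron, 1477 bp of coding sequence and 122 bp of UTR. The deposited tables do not state how start positions are counted, so positions and lengths may be off by 1 base. The MB002 enhancer, chr13:99967959-99969584, was 1625 bp long, held 2 peaks and lay wholly in the intron of *ZIC5* and wholly inside that of HD-MB03, of which it covered 42.1%. The signal of HD-MB03 was 17.7-fold that of MB002 in sum and 7.46-fold per bp, at 3.42 against 0.458.

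The middle 300 bases of the stretch that MB002 and HD-MB03 shared are shown because this is the one place on chromosome 13 where both lines had an enhancer at a member. They are GRCh38, plus strand, and held no match to the 7 motifs.
MB002 and HD-MB03, chr13:99968621-99968920: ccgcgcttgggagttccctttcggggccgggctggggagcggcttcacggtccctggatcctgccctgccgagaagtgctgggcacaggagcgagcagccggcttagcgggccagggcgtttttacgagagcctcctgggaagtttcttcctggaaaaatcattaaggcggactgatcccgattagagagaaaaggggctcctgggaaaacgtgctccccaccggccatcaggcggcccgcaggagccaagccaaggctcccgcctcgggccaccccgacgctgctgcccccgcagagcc
This run held 66.0% G and C and 23 CpG sites.

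The rank of the enhancer was 855 of 15286 in HD-MB03 and 14046 of 26072 in MB002, or 5.59% and 53.9% of the enhancers of the line. By signal per bp, the HD-MB03 enhancer ranked 229, within the number of 302 SEs called in that line, and the HD-MB03 enhancer of *ZIC1* ranked 543. Among HD-MB03 enhancers of like length, within a factor of 1.25, 90.4% were lower in signal than that of *ZIC5* and 87.6% lower than that of *ZIC1*. In MB002, 20.6% of 2635 such enhancers were lower than that of *ZIC5*.

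For the comparison of G3-MB with UW228, the summed signal of *ZIC2*-*ZIC5* was 4645 ± 7410 (SD, n = 3 lines) in the G3-MB lines, with UW228, which had no enhancer, counted as 0. The exact permutation test, two-sided, gave p = 0.75. The SD exceeded the mean because HD-MB03 carried nearly the whole signal, and without HD-MB03 the difference was 372. No fold against UW228 or D425 can be given, since their tables list no enhancer here.

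An element that the G3-MB lines shared stood beyond *ZIC2*, outside the rule. It lay 67149 bp from the *ZIC2* start in MB002 with rank 2507 and a signal of 8858, 68290 bp in D425 with rank 5151 and a signal of 3540, and 68487 bp in HD-MB03 with rank 6211 and a signal of 1282. UW228 had no enhancer there, and its nearest one beyond *ZIC2*, of rank 3264, lay 116282 bp away and was closest to *PCCA*. The element was closest to *PCCA-DT*, a divergent transcript, whose start lay 37778 to 38163 bp from its middle. Distance therefore does not assign it to *ZIC2*. With a window of 100 kb the sum of *ZIC2*-*ZIC5* was 9602 for MB002, 3540 for D425, 14472 for HD-MB03 and 0 for UW228, and the permutation test gave p = 0.5 (exact, two-sided). On chromosome 3 the nearest enhancer outside the rule was that of MB002 82953 bp from the *ZIC1* start, with rank 18536.

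The neighbourhood on chromosome 13 was led by other genes. The strongest enhancer within 1 Mb was closest to *DOCK9-DT* in the 3 G3-MB lines, with rank 417 in MB002, rank 31 and a SE in D425 and rank 620 in HD-MB03. In UW228 it was closest to *PCCA-AS1*, with rank 2228. *ZIC2*-*ZIC5* held 28.1% of the signal within 1 Mb in HD-MB03 and 0.901% in MB002.

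A locus without an enhancer may still have an H3K27Ac peak, because the authors excluded promoter regions before stitching. Not every peak at a promoter is absent from the tables. Of the enhancers made of 1 peak, from 129 of 10443 in UW228 to 439 of 9514 in HD-MB03 lay over a RefSeq start. Those wholly within 2.5 kb of one were 159 in UW228 and 239 in HD-MB03, and 1.52% to 2.51% over the 4 lines. The HD-MB03 peak at *ZIC1* reached from 24 bp before the start to 2765 bp after it and was listed. Peaks carry numbers in genome order, and numbers that the tables skip were set against the start sites. In intervals between listed peaks, a skipped number went with a start site in 94.2% of cases in MB002 and D425, 95.8% in HD-MB03 and 95.1% in UW228, against 14.9% to 24.6% of intervals with no skipped number. Around the starts of *ZIC1* and *ZIC4*, MB002 and D425 each skipped 3 numbers, HD-MB03 skipped 0 and UW228 skipped 1. Around those of *ZIC2* and *ZIC5*, MB002 skipped 1, D425 skipped 3, HD-MB03 skipped 4 and UW228 skipped 2. In HD-MB03, 1 of them fell between 99971725 and 100050271, an interval that holds the starts of *ZIC5*, *ZIC2* and *LINC00554*. Apart from that of UW228 on chromosome 3, these intervals also hold the starts of other genes, so a skipped number there cannot be placed at a member. At *ZIC1*-*ZIC4* the signal of HD-MB03 is thus that of a listed peak over a start, while UW228 skipped 1 number in an interval whose RefSeq starts were those of *ZIC4* and *ZIC1*. The part of such skipped peaks in the difference between the G3-MB lines and UW228 was not tested.

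Input was examined because a gain or loss of DNA moves the H3K27Ac signal with it. The relative input density, which is the input per bp of an enhancer divided by the median of the line, was 0.877 to 1.01 over the 3 *ZIC1*-*ZIC4* enhancers of MB002 and 0.521 to 0.920 over those of D425. It was 1.01 in HD-MB03 and 0.645 in UW228. The median over all enhancers within 1 Mb was 0.839, 0.585, 1.09 and 0.869 in MB002, D425, HD-MB03 and UW228. Divided by the median input density within 500 kb, the sum was 15110 for MB002, 23069 for D425, 6191 for HD-MB03 and 1733 for UW228, so D425 rather than MB002 was then the highest.

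**Figure D5:**
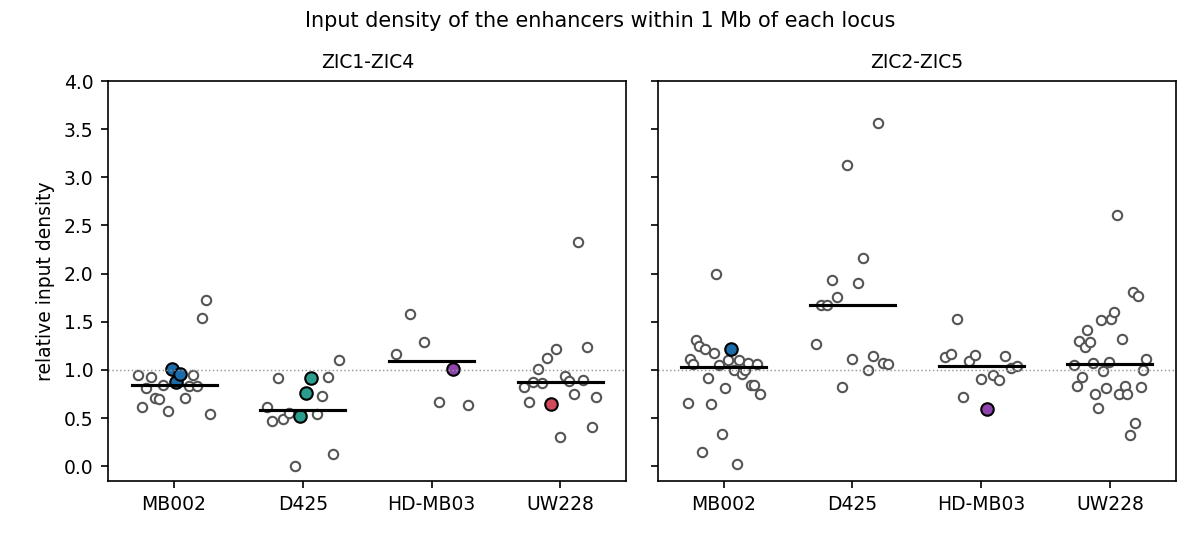
Relative input density of each enhancer within 1 Mb of the *ZIC1*-*ZIC4* locus (left) and the *ZIC2*-*ZIC5* locus (right) in each line, where filled points are ZIC enhancers, open points are others, bars are medians and the dotted line is the median of all enhancers of the line. The medians stand at 0.585 in D425 on the left and at 1.67 in D425 on the right.

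On chromosome 13 the relative input density was 1.21 in MB002 and 0.595 in HD-MB03, whose enhancer thus had the higher signal over the lower input. Divided by its relative input density, the HD-MB03 enhancer in *ZIC5* moved from rank 855 to 336 and passed a recomputed SE cutoff that 379 enhancers of the line passed. H3K27Ac over input was 49.8 in this HD-MB03 enhancer and 19.9 in that of *ZIC1*, against 3.79 to 8.84 in the other 8 ZIC enhancers. The median within 1 Mb was 1.03 for MB002, 1.67 for D425, 1.04 for HD-MB03 and 1.06 for UW228. D425, without a *ZIC2*-*ZIC5* enhancer, had the highest median input of the 4 lines around this locus. The part of DNA gain or loss in the ZIC values was not tested.

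Most ZIC enhancers were richer in G, C and CpG than the median enhancer of their line, and both HD-MB03 enhancers and the MB002 enhancer in *ZIC5* had the highest values. The share of G and C was 68.4% in the *ZIC5* enhancer and 58.9% in the *ZIC1* enhancer of HD-MB03, where the median was 47.1%. The ratio of observed to expected CpG was 0.871 and 0.838, against a median of 0.226. The MB002 enhancer in *ZIC5* had 66.5% and 0.817, against medians of 44.2% and 0.205. The flanking enhancers of MB002 on chromosome 3 were near these medians, with 41.8% and 39.1% G and C and CpG ratios of 0.188 and 0.191. The main *ZIC1*-*ZIC4* enhancer had 49.5% and 0.540 in MB002, and 50.6% and 0.542 in D425, where the medians were 45.8% and 0.217. That of UW228 had 47.3% and 0.496, against medians of 41.3% and 0.202.

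The motif of OTX2 and CRX, the factors that mark G3-MB, was unevenly spread over the ZIC enhancers. In MB002, TAATCC stood at 1.86 and 2.10 per kb in the flanking enhancers of *ZIC1*-*ZIC4* and at 0.457 per kb in the main one, against means of 0.920, 0.895 and 0.887 over enhancers of like length. In D425 it stood below such means in the larger flanking enhancer and in the main one, at 0.274 and 0.352 per kb against 0.90 and 0.89. TAATCC had 19 matches over the *ZIC1*-*ZIC4* enhancers of MB002, or 0.891 per kb, and 11 in D425, or 0.390 per kb, against 0.878 and 0.907 per kb over all enhancers of these lines. It had no match in the *ZIC1* enhancer of HD-MB03, although 79.3% of enhancers of like length held one, and none in that of UW228, where 67.3% did. At *ZIC5* it had 1 match in each of MB002 and HD-MB03. The *ZIC1* enhancer of HD-MB03 held 4 matches to CAGCTG and 3 to CAGATG, the E-boxes of neural bHLH factors, and 83.6% and 92.7% of HD-MB03 enhancers of like length held at least 1. Per kb these were 1.43 and 1.08, against means of 0.780 and 1.01. A match describes the letters and not binding.

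Of a list of 6 related zinc finger genes, the Hedgehog effectors *GLI1*, *GLI2* and *GLI3* and the related *GLIS1*, *GLIS2* and *GLIS3*, MB002 had an enhancer at 5, D425 and HD-MB03 at 4 and UW228 at 6, beside 67.4%, 69.0%, 54.2% and 59.0% of all genes in these lines. The only SE of the list was one assigned to *GLI1* in HD-MB03, of rank 203, where the best ranks of *ZIC2*-*ZIC5* and *ZIC1*-*ZIC4* were 855 and 1985. The same rule gave the 302 SEs of HD-MB03 to 832 genes, so this SE may be assigned to other genes as well. The signal of *GLI1* and *GLIS2* was higher in all 3 G3-MB lines than in UW228, as it was for *ZIC1* and *ZIC4*. *GLI3* had no enhancer in the G3-MB lines and a sum of 26536 in UW228, and *GLIS3* was also lower in all 3 G3-MB lines. These were 2 of 6 genes in each direction, and over all genes with an enhancer 23.4% had the first order and 29.9% the second.

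The genes whose summed signal ran most like *ZIC1*-*ZIC4* over the 4 lines, by Euclidean distance in log10(signal + 1), were *TGDS* at 0.181, *ZNF474* at 0.188 and *SMILR* at 0.198. *TGDS* had 14721, 17985, 6637 and 1653 in MB002, D425, HD-MB03 and UW228. Within a wider distance of 0.5 there were 208 genes, so *ZIC1*-*ZIC4* shared a broadly similar pattern with many genes. The nearest to *ZIC2*-*ZIC5* were *MIR921* at 0.107, *PLD3* at 0.177 and *RNF166* at 0.178, and 30 genes lay within 0.5. *RNF166*, a ubiquitin ligase gene, had 985 in MB002 and 17804 in HD-MB03 and no enhancer in the other lines. These distances rest on 4 libraries and describe likeness of signal only.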

How the data were processed

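H3K27Ac and input ChIP-seq libraries of 4 lines were used, 1 of each per line, with no replicates. The authors aligned the reads to GRCh38 with Bowtie 2 (version 2.3.0), filtered multi-mappers and duplicates, called peaks over input with MACS2 (version 2.2.6), excluded promoter regions, although some peaks over a start are listed, and stitched the rest with ROSE. The deposited signal of an enhancer is H3K27Ac, or input, per base pair, normalized to the library and multiplied by length, and the deposited score is its ROSE rank with a SE call. Library depth is unknown from these values, so no interval from counts is given.

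Input was subtracted from H3K27Ac and the result floored at 0. Lengths are end minus start, as ROSE counts them. Of 29989 curated RefSeq genes, the 27449 whose strand could be read from GENCODE 44 were used, and an enhancer belonged to a gene when it overlapped its body or lay within 50 kb of its start. Introns, UTRs and coding sequence came from protein-coding transcripts of GENCODE, without the longer *ZIC1* transcripts that begin inside *ZIC4*. Python 3.11.15, numpy 2.4.6, pandas 2.3.3, scipy 1.17.1 and matplotlib 3.10.9 were used, and the scripts were tested on simulated data. MB002, D425 and HD-MB03 were compared with UW228 by an exact permutation test of the difference in means. The members and lists were chosen with earlier results of these data known. The genes named were the 4 members, the GLI and GLIS genes, the closest genes of stronger or neighbouring enhancers within 1 Mb, the 3 genes nearest in pattern and the markers. The alternatives were no input subtraction, 2 corrections for input density, signal per bp, division by the median of the line, other windows and start sites, a recomputed SE cutoff, another overlap rule and leaving out each G3-MB line. The GENCODE gene body and the signal per bp of listed peaks were added after seeing the data. Sequences came from GRCh38 and RefSeq promoters, in which all 4 members were found. Some related items are not reported here. Proteins and RNA-seq were not analysed here.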

Additional observations from a re-analysis of the deposited data

How the results depend on the processing

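The difference between the G3-MB lines and UW228, taken between means, kept its direction at *ZIC1*-*ZIC4* under every alternative. At *ZIC2*-*ZIC5* UW228 was at 0 under every alternative that gave a value, so the difference could not turn negative and its direction is no sign of stability. Leaving out each G3-MB line in turn moved it between 7847 and 11057 at *ZIC1*-*ZIC4* and between 372 and 6967 at *ZIC2*-*ZIC5*, where the lowest value was that without HD-MB03. No p could reach 0.05 in this design. At *ZIC1*-*ZIC4* the signal per bp left 1 of 3 G3-MB lines above UW228, with p = 1 (exact permutation test), whereas per bp of the listed peaks, chosen after seeing the data, 3 of 3 were above it, with p = 0.5. At *ZIC2*-*ZIC5* neither gave a value because D425 and UW228 had no enhancer. The number of members with a SE in HD-MB03 moved from 0 to 2, both of them *ZIC2*-*ZIC5*, when the signal was divided by its own relative input density (379 SEs in the line), by the median input density within 500 kb (1048 SEs) or ranked per bp (302 SEs). It stayed at 0 in the other lines under all alternatives. By signal per bp the best rank of *ZIC1*-*ZIC4* was 7961 for MB002, 11000 for D425, 543 for HD-MB03 and 7684 for UW228. By signal it was 2533, 2948, 1985 and 11036 in these lines. Divided by the median input density within 500 kb it was 1965, 1375, 2018 and 10293. The GENCODE gene body, chosen after seeing the data, and the use of any annotated start each added 1 enhancer of MB002 to *ZIC1*-*ZIC4*. No paired analysis was possible because each line has 1 library of each kind. Unknown depth and the lack of replicates limit all values.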
